A study of Anguilla anguilla with 12 samples.

Results

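The microRNAs miR-23, miR-24 and miR-27 were examined in liver small RNA of the European eel (Anguilla anguilla), as precursor hairpins and as genomic clusters. The members were the entries of the deposited miRDeep2 list whose zebrafish example with the same seed, the bases 2 to 8 of the mature RNA, is named miR-23, miR-24 or miR-27. Names below, with their letters, are those of this example. They rest on the seed alone, so the letter in miR-23b or miR-27d does not identify which gene of the family an entry is. The rule found 13 of 820 precursors, on 8 scaffolds. Livers came from 12 yellow eels, the growth stage of the animal. The design sets 6 from Arcachon Bay, described as pristine, beside 6 from the Gironde Estuary, described as polluted. The labels give neither age nor sex nor any treatment. The deposited counts have no column per eel, so each value below is 1 pooled read count with no spread between animals, and the sites were not compared.

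In vertebrates, miR-23, miR-27 and miR-24 are cut from 1 primary transcript, in which their hairpins follow each other in this order. An enzyme in the nucleus frees each hairpin, and Dicer then cuts off the loop. One arm is kept as the mature RNA and the other, the star arm, is mostly lost. In mammals, the group is known from blood vessels, where miR-23 and miR-27 act on angiogenesis. miR-27 is known in mammalian liver from the control of lipid metabolism, miR-24 from cell division and blood cell formation, and miR-23 from the repression of glutaminase. Mammals have a pair of such clusters. Teleosts, the group of bony fishes that includes eels, went through a further genome duplication and often keep more copies.

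Apart from 1 member with 9 reads, which is described last, the members were 12 precursors. They carried 7 different mature sequences. These are shown because they decide which reads can be told apart, with the seed in capitals and each written 5′ to 3′.

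miR-23b on scaffolds 823, 1956 and 2880: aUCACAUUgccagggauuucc
miR-23b on scaffold 5637: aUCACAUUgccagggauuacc
miR-24 on scaffolds 823, 1956, 5637 and 6127: uGGCUCAGuucagcaggaac
miR-27d on scaffold 360521: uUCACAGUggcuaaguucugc
miR-27d on scaffold 297548: uUCACAGUggcuaaguuccg
miR-27d on scaffold 1956: uUCACAGUggcuaaguucagu
miR-27d on scaffold 5637: uUCACAGUggcuaaguccugcg

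Each family had 1 seed, as the rule chose members by their seed. Within a family the sequences differed only toward the 3′ end. Positions are counted from 1 at the 5′ end. The miR-23b of scaffold 5637 differed from the shared one by U19A, with the letter of the shared sequence first. Of the miR-27d sequences, those of scaffolds 1956, 297548 and 360521 were identical over their first 18 bases, and that of scaffold 5637 shared the first 16. Against scaffold 360521, the sequence of scaffold 5637 had C17U as its single difference in the 21 bases compared, and that of scaffold 297548 had C19U in 20. In both tokens the last letter is that of scaffold 360521. The seeds of miR-23 and miR-27 resembled each other, with U7G as the single difference from miR-23b to miR-27d in bases 2 to 8. No other of the 807 precursors in the list carried 1 of the 3 seeds, which also follows from the rule. The longest run of a member's mature sequence found in them was 10 bases, in a miR-146b hairpin. By the length of that run, no shifted copy of these miRNAs was seen among the unmatched entries.

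miR-27 held most of the reads of the group. The 4 miR-27d sequences had 121394 mature reads together, 81.6% of the 148700 reads of all members when each mature sequence was counted once. miR-23 had 14799 mature reads over 2 sequences and miR-24 had 12499 in its single sequence. The summed miR-27 reads were thus 9.71 times those of miR-24 and 8.20 times those of miR-23. All members together made up 0.0546% of the 272589277 distinct mature reads of the list (exact binomial 95% interval 0.0543% to 0.0548%). The miRDeep2 score is a log-odds measure of how well reads resemble Dicer products. Among precursors that scored at least 4 or 10 the share was 0.153%, so it depends on which predictions are kept. Most of that change lay in the reads of the whole list and not in those of the members. Intervals here cover counting error only, not the spread between eels or copies made in amplification. How readily each sequence enters a library also differs, so ratios between miRNAs are ratios of reads and not of molecules.

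The reads of the 4 different sequences named miR-27d were uneven. The hairpin on scaffold 360521 (34 to 96, minus strand) had 80092 mature reads and ranked 53 among the 676 distinct mature sequences. The hairpin on scaffold 297548 (147 to 208, minus strand) had 33417 reads, and that on scaffold 1956 had 7210. The lowest was scaffold 5637 with 675 reads, so the highest and lowest sequences under this name differed 119-fold. The pair with the most reads lay alone on their scaffolds, outside any listed cluster. Because the sequences agree over 16 to 18 leading bases and no source used here gives the mismatches allowed in mapping, some reads of 1 sequence may have been counted at another. Their part in these values was not tested.

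miR-23b came next. The sequence shared by 3 hairpins was listed with 11113 mature reads on scaffold 823, 11113 on scaffold 1956 and 10140 on scaffold 2880 (43207 to 43264, minus strand). These 3 counts lay within 8.76% of the highest, although the hairpins around the mature sequence differ. The sequence found only on scaffold 5637 had 3686 reads. The shared miR-23b ranked 91 and the single miR-24 sequence ranked 86 among the 676. The median over the 12 precursors was 11752 mature reads, beside 108.5 over all 820. miR-24 was listed with 12391 mature reads on scaffolds 823, 1956 and 5637 and with 12499 on scaffold 6127 (30127 to 30182, minus strand), a range of 0.864%. Reads of an identical mature sequence appear to be counted at each copy, although the listed counts are not all equal. A mature count of miR-24, or of the shared miR-23b, is therefore not taken as that of 1 locus. Its level at a single locus cannot be told apart from these counts.

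**Figure D1:**
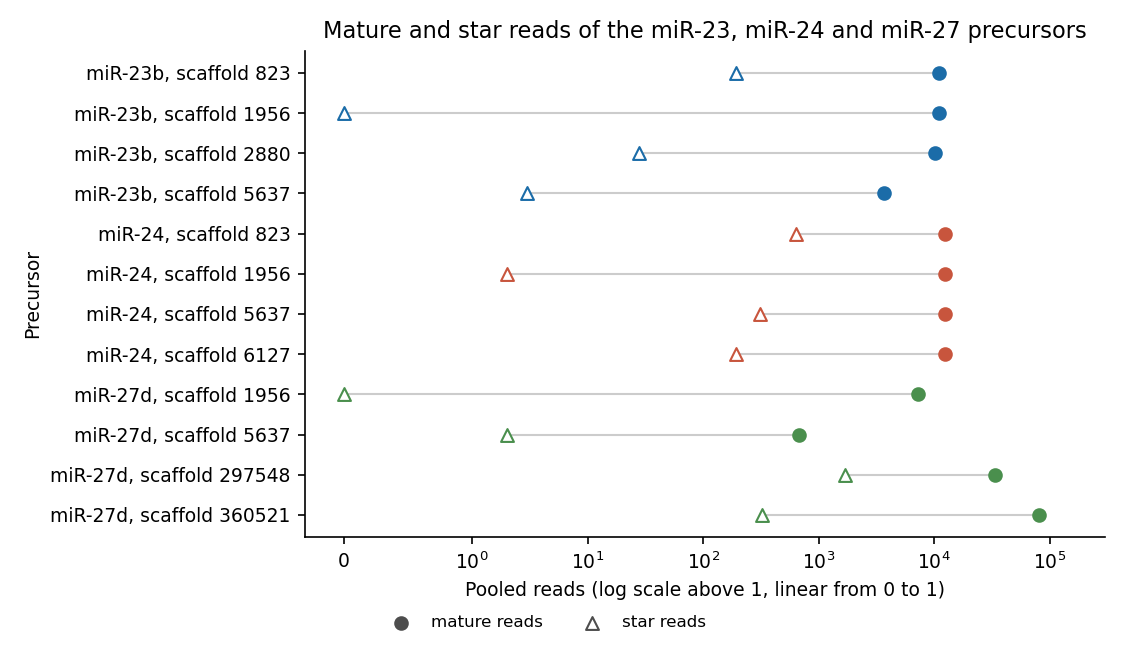
Pooled mature reads (filled circles) and star reads (open triangles) of the 12 precursors, on an axis that is logarithmic above 1 and linear from 0 to 1; blue is miR-23b, red miR-24 and green miR-27d. The miR-24 circles line up at 12391 to 12499 reads while their star reads run from 2 to 638, and the miR-27d circles spread from 675 to 80092.

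The 148700 mature reads of the group were fewer than those of each listed hepatocyte, endothelial, erythroid and mesenchymal family with an entry. They were more than those of the leukocyte and muscle families. With no limit on the score, the hepatocyte miRNA miR-122 held 64.8% of distinct mature reads, the highest share of the marker families in these liver libraries. miR-192 and miR-194 held 1.52% and 0.169%. miR-126, the defining miRNA of endothelial cells, had 2080388 reads, 17.1 times those of miR-27. The erythroid miR-451 had 424400 reads and miR-143 and miR-199, of smooth muscle and mesenchymal cells, had 2370072 and 272428. The leukocyte miRNAs miR-150 and miR-155 had 4545 and 2844 reads. The muscle miRNAs miR-1 and miR-499 had 16291 and 278 reads. No entry was named for miR-145 or miR-133, which are also on these lists. In bulk liver, fewer cells of a type and less RNA per cell cannot be told apart, and which cells gave the miR-23, miR-24 and miR-27 reads was not tested.

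Of the 12 precursors, 8 lay in 3 clusters. Hairpins were put in 1 cluster when they shared a scaffold and a strand and each began at most 10 kb from the next. Clusters on scaffolds 5637 and 1956 each had 3 hairpins, in the order miR-23b, miR-27d, miR-24 in the direction of transcription. The cluster on scaffold 823 had miR-23b followed by miR-24, with no miR-27 entry between or beside them. The 23-27-24 order of other vertebrates was therefore listed in full at 2 eel loci. The number of clusters was also 3 with limits of 3 kb and 50 kb. With a miRDeep2 score of at least 4 or 10, 1 cluster was left, miR-23b with miR-27d on scaffold 5637, and neither full order remained.

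The hairpins of the clusters are given in that order, with the mature arm in capitals. In each of them the mature RNA is the 3′ arm, and the star arm starts the hairpin.

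miR-23b on scaffold 5637: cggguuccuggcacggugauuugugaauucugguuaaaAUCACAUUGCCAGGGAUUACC
miR-27d on scaffold 5637: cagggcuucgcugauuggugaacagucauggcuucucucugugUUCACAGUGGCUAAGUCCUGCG
miR-24 on scaffold 5637: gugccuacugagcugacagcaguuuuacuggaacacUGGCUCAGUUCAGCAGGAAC
miR-23b on scaffold 1956: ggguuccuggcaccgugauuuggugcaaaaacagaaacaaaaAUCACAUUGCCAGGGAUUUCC
miR-27d on scaffold 1956: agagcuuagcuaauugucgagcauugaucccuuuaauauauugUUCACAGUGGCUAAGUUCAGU
miR-24 on scaffold 1956: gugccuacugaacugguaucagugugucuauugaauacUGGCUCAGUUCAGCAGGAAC
miR-23b on scaffold 823: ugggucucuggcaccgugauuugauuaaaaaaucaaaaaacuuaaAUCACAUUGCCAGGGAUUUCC
miR-24 on scaffold 823: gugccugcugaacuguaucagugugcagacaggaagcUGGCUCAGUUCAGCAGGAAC

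The spacing differed between the loci. On scaffold 5637 (4299 to 5137, minus strand) the miR-27d hairpin began 137 nt after miR-23b and miR-24 began 646 nt after miR-27d. On scaffold 1956 (98082 to 100086, plus strand) the same steps were 876 and 1071 nt. The first step was thus much shorter on scaffold 5637, where 78 bases separate the 2 hairpins against 813 on scaffold 1956. On scaffold 823 (108026 to 108899, plus strand) miR-24 began 817 nt after miR-23b. That distance was close to the 783 nt from miR-23b to miR-24 on scaffold 5637, and shorter than the 1947 nt on scaffold 1956. The 751 bases between the hairpins of scaffold 823 would thus have room for a miR-27 hairpin. That none is listed there does not show that the locus lacks one, since the list holds predictions with reads and the genome was not used here.

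**Figure D2:**
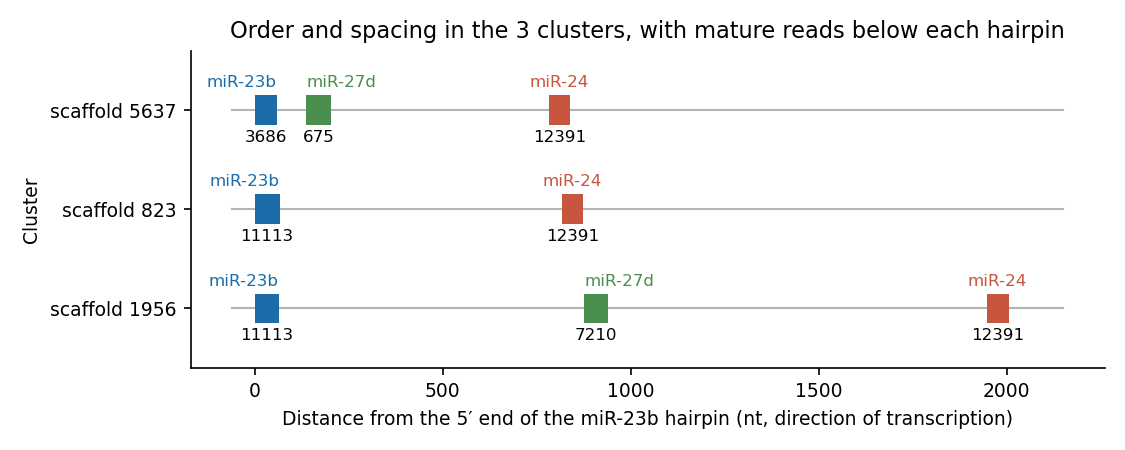
Hairpins of the 3 clusters drawn to scale by distance in nt from the 5′ end of the miR-23b hairpin, in the direction of transcription, with mature reads under each. miR-27d sits directly behind miR-23b on scaffold 5637, 876 nt behind it on scaffold 1956, and is not listed on scaffold 823.

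The 4 remaining precursors were alone on their scaffolds. The miR-27d hairpin of scaffold 360521 has only 33 bases of scaffold on its downstream side, and that of scaffold 297548 has 146. On scaffolds 5637 and 1956, 581 and 1007 bases lie between the miR-27d and miR-24 hairpins. In those clusters miR-23b lies upstream of miR-27d, and how much scaffold lies on that side of the lone miR-27d hairpins is not known here. Whether the scaffold ends bear on the missing neighbours was not tested. On scaffold 2880, 43206 bases follow the miR-23b hairpin downstream, and neither miR-27 nor miR-24 is listed there. Scaffold 6127 has miR-24 alone. The list names no other precursor on these 4 scaffolds, and scaffold 823 has 1 more, an unmatched hairpin with 7 mature reads on the other strand, 78234 nt away. Genes around the loci are not stated, as no annotation of this assembly was used here.

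The listed mature counts within a cluster were uneven on scaffold 5637 and nearly even on scaffolds 1956 and 823. On scaffold 5637, miR-23b had 3686 mature reads, miR-27d 675 and miR-24 12391. The highest was 18.4 times the lowest. On scaffold 1956, the counts were 11113, 7210 and 12391, a range of 1.72 times, and on scaffold 823 they were 11113 and 12391, a range of 1.12 times. miR-27d, in the middle, had the lowest listed count of each full cluster. On scaffold 1956 both other counts appear to include reads of other copies, so the rank of miR-27d at that locus cannot be told. The miR-24 and shared miR-23b counts appear to include reads of other copies, so they at most bound the share of a locus. How even the loci of scaffolds 823 and 1956 are cannot be told from such counts. Both mature sequences found only on scaffold 5637 allow 1 comparison with no identical copy: miR-23b exceeded miR-27d 5.46 times (exact 95% interval 5.03 to 5.94). Each differs by 1 base, over the 21 compared, from a sequence with more reads. These are the shared miR-23b with 11113 and the miR-27d of scaffold 360521 with 80092. Whether reads of those were counted on scaffold 5637 was not tested.

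Among the 51 other clusters of the list, the highest mature count was a median of 9.01 times the lowest. By listed counts, 49 of these were more uneven than scaffold 823, 47 more than scaffold 1956 and 20 more than scaffold 5637. The clusters spanned 874, 2005 and 839 nt in the same order, beside a median of 648 nt for the others. This is a description of 3 clusters with shared reads, so the ranks compare listed counts and not the loci themselves. No test was made.

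**Figure D3:**
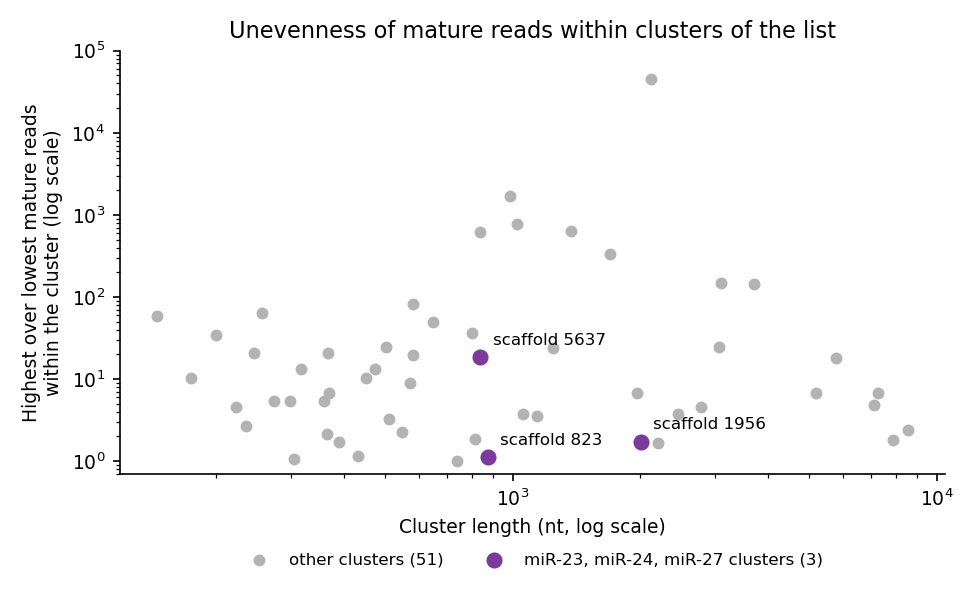
Each point is 1 cluster, placed by its length in nt and by its highest over lowest mature read count, both on log scales; purple marks the 3 clusters of miR-23, miR-24 and miR-27 and grey the 51 others. Scaffolds 823 and 1956 lie near the bottom, at 1.12 and 1.72, and scaffold 5637 lies at 18.4, above the median of 9.01. These ratios use listed counts, in which reads of identical copies appear to be repeated.

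Listed star reads differed between the copies where listed mature reads hardly did. The 12 precursors have 12 different star sequences. The miR-24 star arms were 62.5% to 91.3% identical between copies, and the closest pair was that of scaffolds 823 and 1956. Whether reads of 1 star arm were counted at another was not tested. The 4 miR-24 hairpins had 1147 star reads in all. Scaffold 823 gave 638 of them or 55.6% (exact 95% interval 52.7% to 58.5%). Scaffold 5637 gave 313 or 27.3% (24.7% to 30.0%), and scaffold 6127 gave 194 or 16.9% (14.8% to 19.2%). Scaffold 1956 gave 2, or 0.174% (0.0211% to 0.628%). None of these 4 intervals overlapped, but they are shares of 1 pooled total and cover counting error only. Whether the loci differ between eels was not tested.

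The shared miR-23b sequence showed the same order of scaffolds 823 and 1956. Of its 220 star reads, 192 came from scaffold 823 (87.3%, exact 95% interval 82.1% to 91.4%) and 28 from scaffold 2880. Scaffold 1956 gave 0, which allows up to 3 reads. Over the clusters, star reads summed to 830 on scaffold 823 with its 2 hairpins, 318 on scaffold 5637 and 2 on scaffold 1956, each of these with 3 hairpins. Nearly all star reads of scaffold 5637 were those of miR-24, as its miR-23b had 3 and its miR-27d had 2. A star count measures the arm that is kept less, so it does not give the level of a locus.

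**Figure D4:**
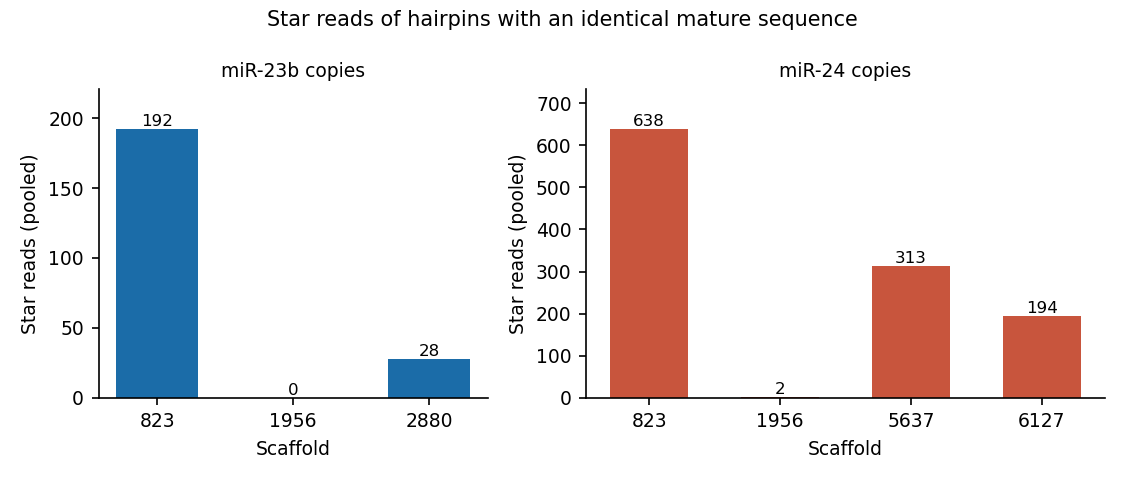
Bars give pooled star reads, from 0, of the hairpins that share an identical mature sequence: miR-23b on 3 scaffolds at the left and miR-24 on 4 scaffolds at the right. Scaffold 823 is the highest in both panels with 192 and 638 reads, and scaffold 1956 has 0 and 2.

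The 3 hairpins of scaffold 1956 had 2 star reads in all, but its miR-23b and miR-24 mature counts appear to include reads of other copies. Its miR-27d sequence is listed nowhere else, and its 7210 mature reads came with 0 star reads. Taken as up to 3 reads, that 0 allows a star share of up to 0.0416%. The miR-27d of scaffold 297548 had 1683 star reads, a share of 4.79% (exact 95% interval 4.57% to 5.02%). That of scaffold 360521 had 324, a share of 0.403% (0.360% to 0.449%). The share of scaffold 5637 was 0.295% from 2 star reads (0.0358% to 1.06%) and was not distinguishable from that of scaffold 360521 at this depth. The exact 95% interval of scaffold 5637 overlapped that of scaffold 1956, which reached 0.0512% by this method. The difference between the shares of these scaffolds was not tested. The most abundant miR-27d was therefore not the one with the highest star share.

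For the copies, a star share per precursor sets locus reads against mature reads that appear to include those of other copies. On that scale miR-24 had 4.90% on scaffold 823, 2.46% on scaffold 5637, 1.53% on scaffold 6127 and 0.0161% on scaffold 1956. With the star reads of all 4 copies set against the mature sequence counted once, the miR-24 share was 8.41% (exact 95% interval 7.95% to 8.88%). The same value for the shared miR-23b was 1.94% (1.70% to 2.21%). In the single list entries the median star share of the 12 precursors was 0.349%, beside 0.402% over the 792 listed precursors that had 10 or more reads on their arms. A share under 1% was found in 7 of the 12 and in 55.1% of the 792. The mature arm was the 3′ arm in 12 of 12, beside 50.4% of the 792. In other vertebrates the 3′ arm is the one known as the main product of these 3 hairpins. As the members were chosen by the seed of that product, their arm was largely set by the rule.

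The miRDeep2 score split the members into separate ranges. In 7 of the 12 it ran from 347.9 to 41001.8, which was 0.510 to 0.514 per read. In the other 5 it lay between 3.4 and 3.8, although these had 7210 to 13029 total reads. The 5 were the whole cluster of scaffold 1956 and the miR-24 hairpins of scaffolds 823 and 5637. Their star reads ran from 0 to 638. The same miR-24 sequence scored 6474.1 on scaffold 6127, and the shared miR-23b sequence scored 5766.7 on scaffold 823. The miR-27d sequence of scaffold 1956 is listed nowhere else. What set the low scores was not tested.

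The arm of the remaining member went against its label. The entry on scaffold 56 (236292 to 236350, minus strand) carries the name miR-23a-5p, but rests on 8 mature reads and 1 star read. Its mature sequence is shown with the seed in capitals.

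miR-23a-5p seed on scaffold 56: uAAUUCCUgcuguacauugugag

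This sequence lies on the 3′ arm of its hairpin, whereas the zebrafish name is that of a 5′ arm. The longest run it shares with any of the other 12 hairpins is 8 bases. The entry was left out of the values for miR-23 above, and its name, like those of the other members, rests on the seed alone.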

How the data were processed

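Small RNA was sequenced from 12 livers. Per the labels, RNA came from a microRNA isolation kit and libraries from a small RNA kit for Illumina, and base calls were handled with bcl2fastq 2.17.1.14, per the submitters' processing notes. The authors deposited 1 list of miRDeep2 predictions, per the file headers, with read counts that carry no normalization and a score for each precursor. No source used here gives the trimming, the mapping or the libraries that entered the list, so the depth of each library is unknown. Coordinates are scaffold positions of the listed whole-genome shotgun assembly, whose build name is not given, with 1 added to the start.

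Entries with an identical mature sequence were counted once, at the highest mature count. Overlapping predictions on 1 strand were merged to the one with more total reads before clusters were built, which gave 54 clusters, and 52 if merged on either strand. Star shares are star over mature plus star reads. Intervals are Clopper-Pearson, at 95%. A count of 0 allows up to 3 reads. Sequences were read from the deposited list. Star arms were aligned globally (Biopython 1.88; match 1, mismatch -1, gap opening -2, extension -0.5), and hairpins were folded with RNAfold 2.7.2. Python 3.11.15, pandas 2.3.3, numpy 2.4.6, scipy 1.17.1 and matplotlib 3.10.9 were used. The cluster and overlap functions were tested on simulated data. The comparison of 6 against 6 livers needs counts per eel and was not analysed here. Every member was named, those with at least 1000 mature reads or in a cluster in full. The members, lists and settings were chosen with earlier results of these data known.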

Additional observations from a re-analysis of the deposited data

Results flagged for a closer look

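Loop reads entered no comparison. Of the 12 precursors described in full, 1 exceeded the 3 reads that a count of 0 allows: the miR-27d hairpin of scaffold 297548 had 8 loop reads, beside 33417 mature and 1683 star reads. It was also the miR-27d hairpin with the most star reads.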

How the results depend on the processing

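No paired analysis was possible because the counts carry no eel. The share of distinct mature reads, 0.0546%, was 0.0533% with reads summed over entries, 0.0424% with each seed counted once and 0.0552% by total reads. It rose to 0.153% when scores had to reach 4 or 10, which leaves fewer precursors in both parts of that share. The members kept most of their reads, while the whole shrank more. A whole that still held the most abundant miR-122 sequence, with 176573973 reads, would be too large for a share of 0.153%. Either score limit left 7 of 13 precursors, 6 of 8 distinct sequences and 1 of 3 clusters, the pair miR-23b and miR-27d on scaffold 5637. The median star share, 0.349%, was 0.403% both with at least 1000 mature plus star reads and over distinct sequences. Distances of 3 and 50 kb, merging overlaps on 1 strand or on either, and a minimum of 10 reads kept the numbers of precursors and clusters within 1.5 times. Leaving out the miR-23a-5p entry and merging on either strand were chosen after seeing the data, and the first changed the share by less than its counting interval. Star counts under 4 limit what can be said of scaffold 1956.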

Other observations

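The hairpins of miR-23, miR-24 and miR-27 resembled the list in shape. Their length was 56 to 66 nt with a median of 60.5, beside a median of 60 over the 820 precursors. The minimum free energy of folding ran from -28.2 kcal/mol, for miR-24 on scaffold 823, to -19.9 kcal/mol, for miR-24 on scaffold 5637, with a median of -24.0 beside -24.2 for the list. The GC content was lowest for miR-27d on scaffold 1956, at 37.5%, and highest for miR-24 on scaffold 823, at 54.4%. In the predicted fold, 14 to 19 bases of the mature arm were paired, from 14 in miR-24 on scaffold 5637 to 19 in the miR-27d hairpins of scaffolds 5637 and 360521. Whole hairpins were 66.7% to 83.1% identical between those named miR-27d, 71.6% to 83.3% for miR-23b and 77.6% to 82.8% for miR-24. These measures were chosen after the list was seen.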
